A study of Mus musculus with 8 samples.

Results

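The 9 genes described here encode calcium channels of the plasma membrane, calcium release channels of the internal stores and a sodium leak channel. They are Cacna1c and Cacna1d (L-type channels), Cacna1a (P/Q-type), Cacna1g, Cacna1h and Cacna1i (T-type), Ryr2 (a ryanodine receptor), Itpr1 (an inositol trisphosphate receptor) and Nalcn (the leak channel). Members were taken by gene symbol, which gave 9 of 20741 genes, 587 of 292239 exons, 398 of 176269 introns and 551 of 229190 splice junctions. Polyadenylated RNA came from the suprachiasmatic nucleus (SCN), the hypothalamic circadian pacemaker, of C57/BL6 mice kept for 3 weeks in a 12 h light and 12 h dark cycle and then in darkness. Tissue was taken every 6 h over 2 days. This gave 8 libraries at circadian times CT4, CT10, CT16 and CT22, with 2 libraries per time, 1 from each cycle. Each library was a pool of equal RNA amounts from 3 mice, so differences between mice within a pool were averaged, and no library was repeated at its own time point. All libraries share strain, tissue and housing, and none carried a drug or an allele. Collection is labelled as starting at CT18, while the earliest library is titled CT22, and the titles were followed.

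Voltage-gated calcium channels open when the membrane depolarises and let calcium into the cell. L-type channels open at strong depolarisation and T-type channels near the resting potential, while P/Q-type channels sit largely at nerve terminals and trigger transmitter release. Ryanodine and inositol trisphosphate receptors release calcium from the endoplasmic reticulum, and NALCN carries a standing sodium leak that depolarises neurons. In SCN neurons, L-type current, store release and the leak current are all known to take part in the daily rhythm of firing and cytosolic calcium.

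The gene tables held 11123610 to 11131890 reads per library, while introns held 4196931 to 4199146, exons 25232810 to 25232813 and junctions 3196136 to 3437120. Totals this close look equalised between libraries before deposit, by a step not given in the sources used here, so the depth sequenced per library is not known. Of 5 clock genes used as a check, 4 passed the 24-h test. The SCN markers summed to 456 to 618 CPM (reads scaled to the library's size) in the dusk libraries (CT10 and CT16), against 641 to 910 CPM in the dawn libraries (CT22 and CT4). All 8 SCN markers were lower at dusk. In the 24-h test by edgeR's quasi-likelihood method, 6 of them had an unadjusted p under 0.05 and 1 was called. Their sum can therefore not be read as SCN content alone. Neuron markers summed to 2705 to 3556 CPM at dusk, against 3153 to 3606 CPM at dawn. Oligodendrocyte markers summed to 8205 to 15971 CPM at dusk, against 5108 to 10540 CPM at dawn. All 12 oligodendrocyte markers were higher at dusk, and 11 of them had an unadjusted p under 0.05 in the 24-h test by edgeR's quasi-likelihood method. Telencephalic and thalamic markers were also read. Neurod6, 1 of 3 telencephalic markers, averaged under 1 CPM. So did Pcp2 and Gabra6, 2 of 3 cerebellar markers, and the cerebellar sum of 283 to 342 CPM at dusk, against 273 to 359 CPM at dawn, came almost wholly from the other one, Calb1. No marker of any list was at 0 in all 8 libraries. With a term for the oligodendrocyte markers, dusk over dawn of Cacna1d was -0.41 (log2) with an adjusted p of 0.973 by edgeR's quasi-likelihood test, and without the term -0.41 with an adjusted p of 0.271. The part of the other markers in the results below was not tested. In bulk tissue, fewer cells of a type and less RNA per cell cannot be told apart, and the p-values below measure the spread between pooled libraries.

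Per length, Nalcn was the most abundant of the 9 genes and Cacna1c the least, by merged exons, longest transcript and last exon. Mean levels over the 8 libraries, in RPKM (gene reads scaled to library size and to kb of merged exon), were 18.2 ± 2.11 (SD) for Nalcn and 17.2 ± 2.67 for Cacna1g. Itpr1 had 8.82 ± 0.988 RPKM, Cacna1a 8.62 ± 0.932, Cacna1i 7.68 ± 1.11 and Cacna1d 7.31 ± 1.25. Ryr2 followed with 5.30 ± 0.571 RPKM, Cacna1h with 3.78 ± 0.814 and Cacna1c with 2.65 ± 0.333. The SDs of neighbours overlapped between Nalcn and Cacna1g, from Itpr1 through Cacna1d, and between Cacna1h and Cacna1c. They did not overlap between Cacna1g and Itpr1, Cacna1d and Ryr2, or Ryr2 and Cacna1h. Nalcn was 6.86 ± 0.733 times as abundant as Cacna1c. That ratio was 13.7 with the longest transcript as length and 14.9 with the last exon alone. The order between them also depended on the length used: Itpr1 ranked 3 by merged exons, 5 by longest transcript and 2 by last exon, ahead of Cacna1g. Last exons carried very unequal parts of the reads, from 58.4% in Nalcn and 51.9% in Cacna1d to 16.4% in Cacna1g and 10.3% in Cacna1a.

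**Figure D1:**
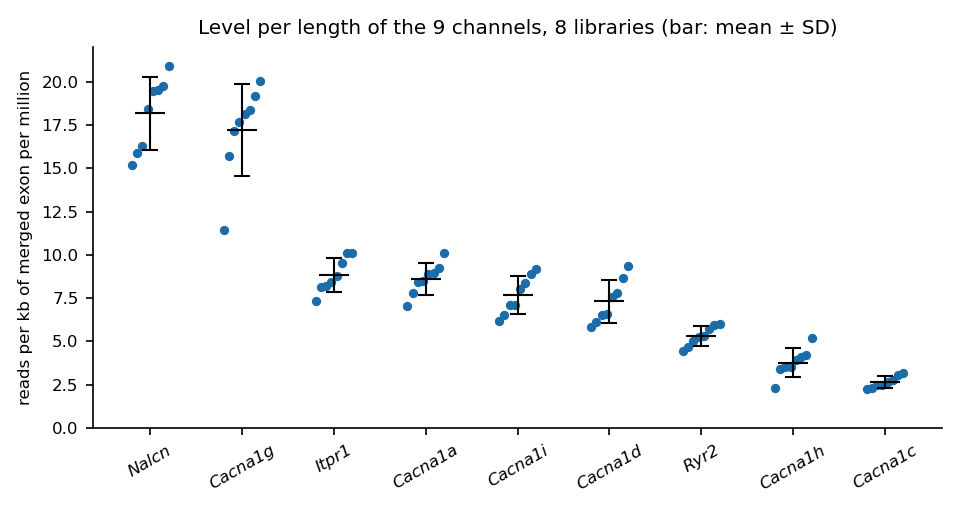
Level of each gene per length (RPKM, linear axis), with 1 point per library and the mean and SD over the 8 libraries. Nalcn and Cacna1g lie above the other 7 genes, and Cacna1c is lowest at 2.65 RPKM.

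**Figure D2:**
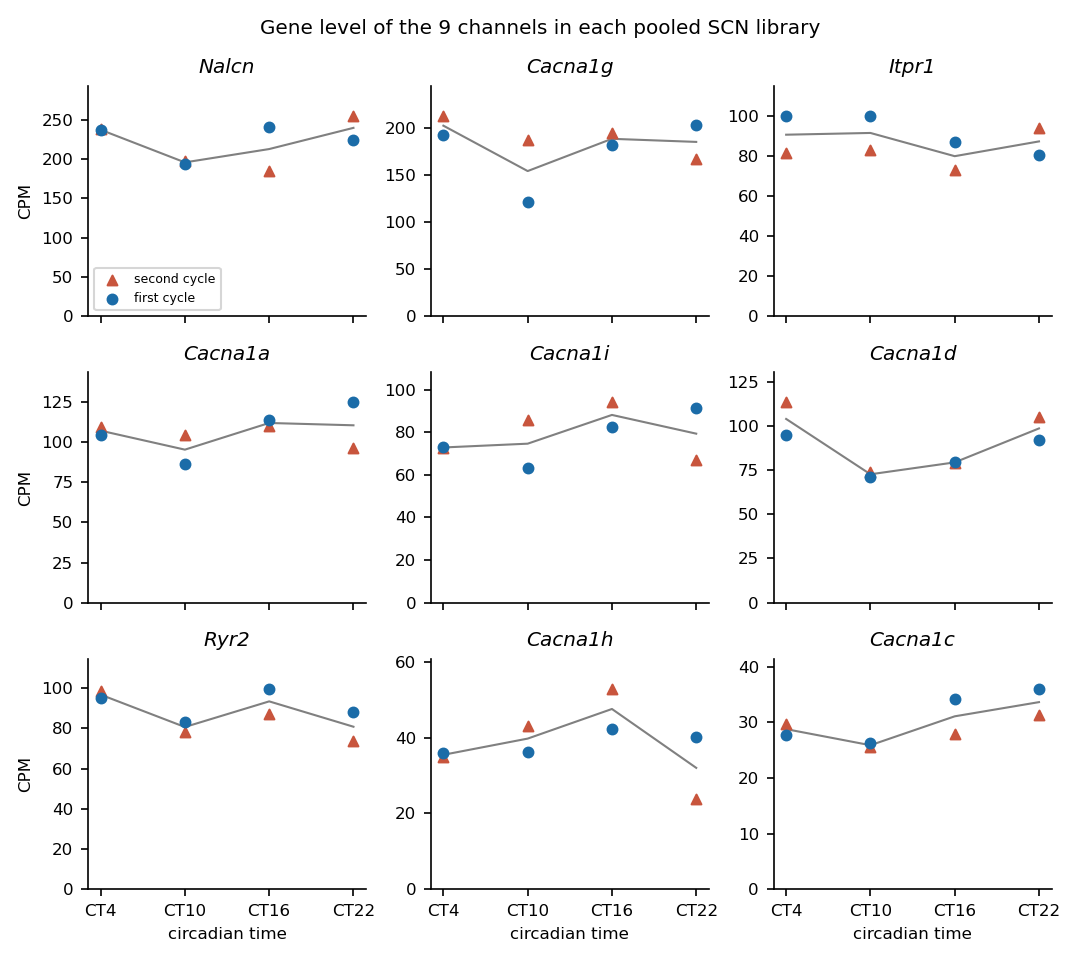
CPM of the 9 genes at CT4, CT10, CT16 and CT22, with 1 point per library and the mean of the 2 cycles. Cacna1d is lowest at CT10 and CT16 in both cycles, from 71.0 to 79.5 CPM.

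Cacna1d, the pore subunit of an L-type channel that opens at less depolarised potentials than its relative, had the clearest difference over time. It had 94.5 and 113 CPM at CT4, 71.0 and 74.1 at CT10, 79.5 and 79.1 at CT16, and 91.9 and 105 at CT22. All 4 dusk libraries lay below all 4 dawn libraries. The fitted 24-h swing was 0.59 ± 0.13 (SE) on the log2 scale with a peak at circadian time 0.775 ± 0.85 h. Its unadjusted p was 0.00153 and its Benjamini-Hochberg adjusted p 0.253 by edgeR's quasi-likelihood test. Dusk over dawn was -0.41 ± 0.09 (log2), a ratio of 0.75, with an adjusted p of 0.271. By DESeq2 the adjusted p was 0.0336 for the 24-h test and 0.0234 for dusk against dawn. By edgeR, 0.112% of the 15217 genes tested were called in the 24-h test, 0.105% between day and night, and 0.0197% between dusk and dawn. None of the 9 channel genes was. DESeq2 called 1 of them, Cacna1d, in the 24-h and the dusk against dawn test, where it called 0.644% and 0.223% of all genes. It called none of them between day and night, against 0.368% of all genes. At an unadjusted p under 0.05, edgeR found 1 of the 9 in the 24-h test (Cacna1d, against 8.6% of all genes) and 1 between day and night (Cacna1c, against 7.72%). It found 3 between dusk and dawn (Cacna1d, Nalcn and Cacna1h, against 7.84%), and 1 in a 12-h contrast of CT4 and CT16 with the other times (Ryr2, against 7.47%). Dusk and dawn libraries did not overlap for 3.61% of all genes, and for 1 of the 9 channel genes. Day and night libraries did not overlap for 4.65% of all genes, and for 0 of the 9. In the authors' deposited table of JTK rhythm tests, every channel gene had a q-value of 1, and the p-values of Cacna1d and Cacna1c were both 0.125.

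Reads within introns gave a second count of the same gene. Cacna1d introns held 3268 reads over the 8 libraries, of which 59.2% fell in 1 intron, chr14:30865744-30879219 (mm9). They had 304 to 364 reads per library at dusk, against 438 to 520 at dawn. How many intron sums of all genes have such ranges apart was not counted, here and for Cacna1c below. Dusk over dawn was -0.54 ± 0.12 (log2) with an adjusted p of 0.0517 by edgeR, and the 24-h swing was 0.77 ± 0.17 with an adjusted p of 0.103. The share of genes called in the 24-h test of intron sums was 0.27%. DESeq2 gave an adjusted p of 0.0279 for the 24-h swing of the Cacna1d introns, and called 0.65% of all intron sums.

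A single intron of Cacna1d passed the test among 62118 introns, of which 0.0934% were called. It spans chr14:30896183-30903007 (mm9, 6825 bases) and includes an annotated exon that is described next. It held 33 and 12 reads at CT4, 9 and 3 at CT10, 6 and 6 at CT16, and 39 and 39 at CT22, or 24 reads at dusk against 123 at dawn. Its 24-h swing was 3.33 ± 0.64 (log2), with a peak at 0.145 ± 0.72 h and an adjusted p of 0.0410 by edgeR. The nested intron chr14:30896183-30902481, without that exon, had 17 reads at dusk and 98 at dawn, a swing of 3.54 ± 0.80 and an adjusted p of 0.148. The longer one around it, chr14:30895726-30903007, had 54 at dusk and 143 at dawn, a swing of 2.06 ± 0.52 and an adjusted p of 0.237. This fit was added after the data were seen. No intron of the 9 genes was called when CT4, CT16 or CT22 of the first cycle or CT10, CT16 or CT22 of the second was left out, and 2 were called without CT10 of the first cycle. Over the 9 genes 102 introns were tested, 1 was called, and 16 (15.7%) had an unadjusted p under 0.05, against 7.85% of all introns. Introns that overlap, such as those above, share reads and each count, so the 16 are not independent.

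Both L-type genes hold pairs of equally long neighbouring exons of which a transcript normally carries only 1. Junction reads that joined the exons of a pair numbered 2 for the 84-base pair of Cacna1d, 1 for that of Cacna1c and 0 for the 104-base pair. In Cacna1d and Cacna1c an 84-base pair encodes alternate versions of a membrane segment in the last of the channel's repeats, and in Cacna1d a 104-base pair encodes alternate versions of a pore-lining segment in the first. Their sequences are printed to show how the alternates differ. They are from GENCODE vM21 (GRCm38) and were matched to the mm9 exons of the files by gene, length and spacing. Capitals mark positions at which the exons of a pair differ.
Cacna1d 84-base upstream exon, chr14:30089822-30089905, minus strand: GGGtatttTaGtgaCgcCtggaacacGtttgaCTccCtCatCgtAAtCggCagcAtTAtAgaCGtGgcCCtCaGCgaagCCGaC
Cacna1d 84-base downstream exon, chr14:30089296-30089379, minus strand: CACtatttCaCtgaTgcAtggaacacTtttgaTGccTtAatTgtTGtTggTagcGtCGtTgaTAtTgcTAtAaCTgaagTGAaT
Cacna1d 104-base upstream exon, chr14:30171956-30172059, minus strand: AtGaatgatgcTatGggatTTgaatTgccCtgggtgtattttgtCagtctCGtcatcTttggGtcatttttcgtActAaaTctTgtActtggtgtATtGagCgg
Cacna1d 104-base downstream exon, chr14:30171296-30171399, minus strand: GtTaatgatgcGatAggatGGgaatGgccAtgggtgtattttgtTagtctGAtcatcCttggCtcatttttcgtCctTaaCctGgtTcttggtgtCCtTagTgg
Cacna1c 84-base upstream exon, chr6:118638427-118638510, minus strand: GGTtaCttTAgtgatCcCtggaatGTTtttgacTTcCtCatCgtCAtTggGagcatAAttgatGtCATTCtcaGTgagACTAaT
Cacna1c 84-base downstream exon, chr6:118637730-118637813, minus strand: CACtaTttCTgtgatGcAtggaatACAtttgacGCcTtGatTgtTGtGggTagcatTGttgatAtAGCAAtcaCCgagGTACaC

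The Cacna1d 84-base exons were 60.7% identical, and their starts lie 526 bases apart. The downstream exon had 36 reads, 7 of them at dusk and 29 at dawn, or 16 at dawn without the first-cycle CT22 library. The upstream exon had 16, with 8 at dusk and 8 at dawn, of which 6 came from the first-cycle CT4 library. Over all junctions on the downstream side, the downstream alternate had 1 read at dusk and 23 at dawn, and the upstream alternate 10 at dusk and 5 at dawn. In the most-read junction of the downstream alternate on that side, 10 of 21 dawn reads came from the first-cycle CT4 library. On the other side, junctions of the downstream alternate had 9 reads at dusk and 20 at dawn, and those of the upstream alternate 1 at dusk and 4 at dawn. In the most-read junction there, 11 of 18 dawn reads came from the first-cycle CT22 library and 0 from CT4. The sides thus gave different pictures, and these junctions had too few reads for the junction test. The Cacna1d 104-base exons were 78.8% identical. Their downstream exon had 43 reads, 16 at dusk and 27 at dawn, or 14 at dawn without the first-cycle CT22 library. All of its dusk reads were from CT10, and both CT16 libraries had 0. The upstream exon had 3 reads, all at dawn. The Cacna1c 84-base exons were 58.3% identical. Here the downstream exon had 6 reads at dusk and 11 at dawn, and the upstream one 12 at dusk and 1 at dawn, of which 10 came from the first-cycle CT16 library. The files also list a slightly shorter form of this downstream exon that shares 1 of its ends, and its reads were not added.

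**Figure D3:**
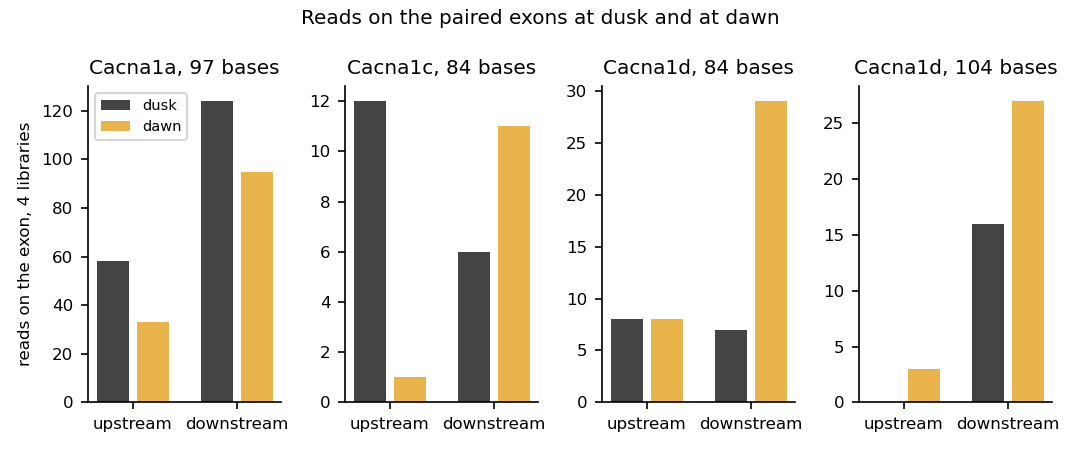
Reads on the upstream and downstream exon of each pair, summed over the 4 dusk libraries and the 4 dawn libraries (linear axes from 0, with a scale of its own for each pair). The downstream 84-base exon of Cacna1d has 7 reads at dusk and 29 at dawn.

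Cacna1c, the pore subunit of the other L-type channel, had 27.8 and 29.8 CPM at CT4, 26.3 and 25.5 at CT10, 34.2 and 27.97 at CT16, and 36.0 and 31.2 at CT22. Its day over night difference was -0.24 ± 0.11 (log2) with an adjusted p of 0.637 by edgeR. Day and night libraries overlapped. Its introns had 109 to 172 reads per library at dusk, against 175 to 245 at dawn. Dusk over dawn of the introns was -0.55 ± 0.16 (log2), with an adjusted p of 0.203.

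Reads along the transcript were unequal in both L-type genes, and not only in these. Exons were put in order from the 5′ end and split at the middle by number into upstream and downstream exons. In Ryr2, exon 47 of 94 had 141 reads per kb over the 8 libraries and the last exon 1901. In Itpr1, exon 29 of 58 had 99.2 and the last exon 2715. The levels per merged exon or longest transcript above did not allow for this. The upstream exons of Cacna1d had 194 and 231 reads at CT4, 135 and 57 at CT10, 99 and 52 at CT16, and 239 and 151 at CT22. Dusk over dawn was -1.26 ± 0.28 (log2) on the upstream exons, with an adjusted p of 0.0986, and -0.38 ± 0.09 on the downstream exons. Upstream exons of Cacna1c had 143 and 158 reads at CT4, 97 and 41 at CT10, 122 and 45 at CT16, and 144 and 140 at CT22. Dusk over dawn there was -0.94 ± 0.31, against 0.08 ± 0.12 on the downstream exons. How many of all genes have upstream exons with dusk and dawn ranges apart, as in these 2 genes, was not counted. In the 24-h test of upstream exons edgeR called 0 of 5611 genes, and 8.98% had an unadjusted p under 0.05, among them Cacna1d, Cacna1c, Cacna1g and Nalcn. In that of downstream exons 0.178% were called and 9.8% had an unadjusted p under 0.05, and none of the 9 genes was called. The downstream swing of Cacna1d was 0.55 ± 0.13 (log2) with an adjusted p of 0.220 by edgeR. Upstream it was 1.80 ± 0.39 with an adjusted p of 0.238. The test of upstream against downstream exons gave an adjusted p of 0.318 for both genes by edgeR. It called 0 of 5611 genes, and 7.65% had an unadjusted p under 0.05. Over all 5611 genes the median dusk minus dawn difference of the upstream to downstream log2 ratio was -0.10. It was -0.96 for Cacna1d, with 230 genes lower, and -1.18 for Cacna1c, with 142 lower. The first-cycle CT22 library, a dawn library, stood apart in that ratio over all genes, with a median of -1.50 against -1.75 to -1.68 in the other libraries. With each library's median as a term, the fitted dusk over dawn difference of upstream against downstream exons was -0.57 for Cacna1d, against -0.88 without the term. For Cacna1c it was -1.21 with the term, against -1.02 without it, and both adjusted p were 0.991 with it.

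**Figure D4:**
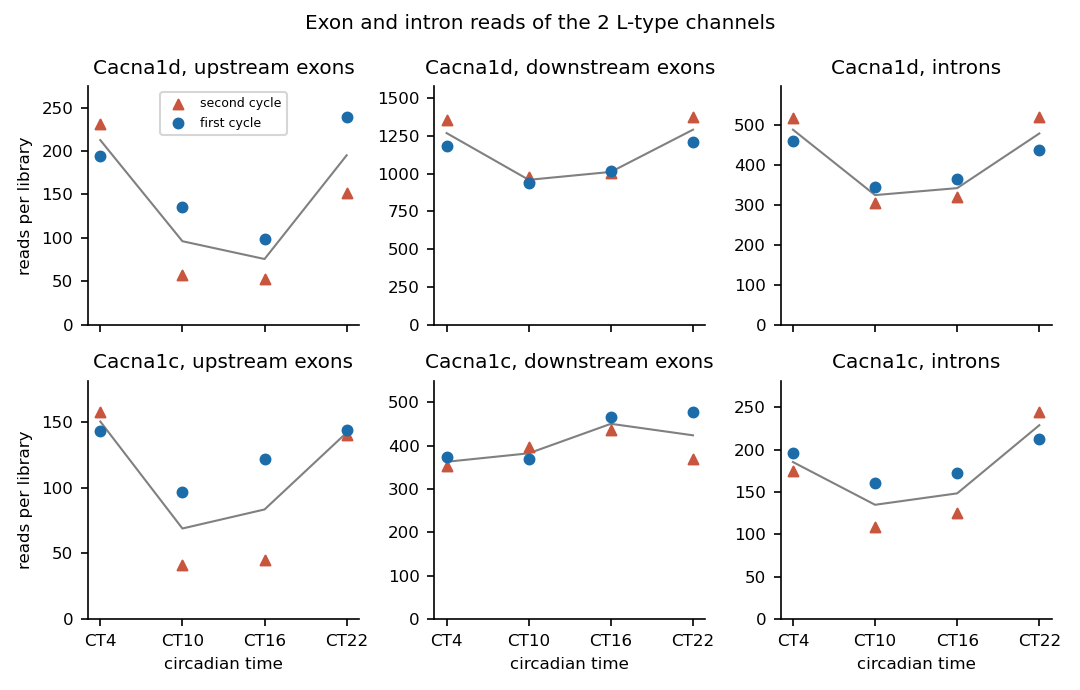
Reads per library on the upstream exons, the downstream exons and the introns of Cacna1d and Cacna1c at CT4, CT10, CT16 and CT22. Upstream exons of Cacna1d have 52 to 135 reads at CT10 and CT16, and 151 to 239 at CT22 and CT4. How many of all genes have such ranges apart was not counted.

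Cacna1a, the pore of the P/Q-type channel, had 105 and 110 CPM at CT4, 86.5 and 104 at CT10, 114 and 110 at CT16, and 125 and 96.2 at CT22. The times overlapped, and the 24-h swing of 0.22 ± 0.14 (log2) had an adjusted p of 0.783 by edgeR. A 97-base exon pair near its 3′ end encodes alternate versions of a calcium-binding region in the channel's tail, and is printed because both exons were well read.
Cacna1a 97-base upstream exon, chr8:84614695-84614791, plus strand: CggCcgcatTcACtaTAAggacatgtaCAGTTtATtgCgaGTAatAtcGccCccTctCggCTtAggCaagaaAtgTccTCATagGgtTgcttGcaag
Cacna1a 97-base downstream exon, chr8:84615574-84615670, plus strand: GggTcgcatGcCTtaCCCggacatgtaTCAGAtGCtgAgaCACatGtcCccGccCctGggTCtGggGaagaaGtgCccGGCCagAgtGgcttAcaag
These exons were 61.9% identical, and no read joined them. The upstream exon had 91 reads, 58 at dusk and 33 at dawn, and also 33 at dusk without the first-cycle CT10 library. The downstream exon had 219, with 124 at dusk and 95 at dawn. The files also list a 749-base exon, chr8:87138821-87139569 (mm9), flagged as outside the known gene models, that contains the downstream exon and ends at the same splice site. It had 382 reads, with 25 to 62 per library at dusk, against 43 to 65 at dawn, and how many of them are also among the 219 is not given. Of 191 junction reads that left the exon before the pair, 96 (50.3%, Wilson 95% interval 43.2 to 57.3%) entered the 97-base downstream exon and 87 (45.5%, 38.6 to 52.6%) the upstream one. The other 8 (4.19%, 2.14 to 8.05%) entered the 749-base exon, all of them in the CT16 libraries. Of 273 reads that reached the exon after the pair, 47 (17.2%, 13.2 to 22.1%) came from the upstream exon. Another 223 (81.7%, 76.7 to 85.8%) left the end that the 97-base downstream exon and the 749-base exon share, and cannot be divided between them. The sides thus do not count the same exons, and their shares were not compared. Among libraries the share that entered the 97-base downstream exon ran from 20 to 75%, and that which entered the upstream one from 12.5 to 80.0%. All such intervals here and below cover counting error only.

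T-type channels, encoded by Cacna1g, Cacna1h and Cacna1i, open near rest. Cacna1g had 193 and 213 CPM at CT4, 121 and 188 at CT10, 183 and 195 at CT16, and 204 and 167 at CT22, and its lowest library was the first-cycle CT10. Its introns held 11563 reads. Set against the separately made gene count that was 71.0%, with a median of 18.5% over 12181 genes. Of these Cacna1g intron reads, 35.2% fell in 1 intron. The same percentage was 63.2% in Cacna1a, 52.6% in Cacna1c, 41.5% in Cacna1d and 29.6% in Cacna1h. It was 10.6% in Cacna1i and 8.53% in Nalcn. Cacna1h had 36.0 and 35.0 CPM at CT4, 36.3 and 43.2 at CT10, 42.2 and 52.9 at CT16, and 40.2 and 23.8 at CT22. It was the gene with the largest positive dusk over dawn value of the 9, at 0.37 ± 0.15 (log2, adjusted p of 0.595 by edgeR), and its libraries overlapped. In the second cycle that difference was 0.73, and in the first 0.04. Cacna1i had 72.9 and 72.8 CPM at CT4, 63.3 and 86.0 at CT10, 82.3 and 94.0 at CT16, and 91.5 and 67.2 at CT22, with a 24-h swing of 0.29 ± 0.16 (adjusted p of 0.748). No T-type gene passed the test.

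Among Cacna1g junctions that share the position chr11:94272931 (mm9), 110 of 192 reads (57.3%, Wilson 95% interval 50.2 to 64.1%) took the nearest partner. That share ran from 21.4 to 82.6% between libraries. Another 59 (30.7%) took the farthest one and 22 (11.5%) one between them. Junction choice differed between dusk and dawn for 0 of 4748 junctions tested over all genes by edgeR, with an unadjusted p under 0.05 for 0.927%, and for 2.02% between day and night.

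Neither store channel passed the test. Ryr2, the release channel opened by calcium itself, had 95.2 and 98.4 CPM at CT4, 83.4 and 78.1 at CT10, 99.8 and 87.2 at CT16, and 88.2 and 73.5 at CT22. Its 24-h swing was 0.05 ± 0.15 (log2) with an adjusted p of 0.983 by edgeR. Itpr1, the release channel opened by inositol trisphosphate, had 99.9 and 81.3 CPM at CT4, 99.7 and 83.2 at CT10, 86.9 and 72.8 at CT16, and 80.4 and 94.1 at CT22. Its swing was 0.19 ± 0.15 with an adjusted p of 0.825. Intron reads set against the gene count were 11.4% in Ryr2 and 4.93% in Itpr1.

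Nalcn, the leak channel, had 237 and 238 CPM at CT4, 193 and 198 at CT10, 240 and 185 at CT16, and 225 and 255 at CT22. The first-cycle CT16 library lay above 3 of the dawn libraries, so dusk and dawn overlapped. Dusk over dawn was -0.22 ± 0.09 (log2) with an adjusted p of 0.586 by edgeR. Its introns had 133 to 211 reads at dusk, against 201 to 282 at dawn, with a dusk over dawn value of -0.40 ± 0.14 and an adjusted p of 0.310. The files list an exon of 96 bases, chr14:123679651-123679746 (mm9), that they flag as outside the known gene models. It had 13 and 16 reads at CT4, 14 and 3 at CT10, 11 and 21 at CT16, and 23 and 13 at CT22, and the times overlapped. Of 510 junction reads that share chr14:123677584, 103 (20.2%, Wilson 95% interval 16.9 to 23.9%) joined it to the gene's last exon and 406 (79.6%) skipped it. The joining share ran from 4.88 to 44.6% between libraries. On the exon's other side, 59 of 465 reads (12.7%, 9.97 to 16.02%) joined it to chr14:123680321, with 7.41 to 23.5% between libraries. These intervals did not overlap, but they cover counting error only, and the ranges between libraries did overlap. Whether the sides differ was not tested. An exon of 113 bases next to that position, chr14:123680322-123680434, carries the same flag and had 487 reads.

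Over the 9 genes, 7 had a lower fitted level at dusk than at dawn, with a median log2 difference of -0.07, against 0.006 over all genes, of which 48.6% were lower. Between the second and the first cycle edgeR and DESeq2 called 0 genes, and 3.57% had an unadjusted p under 0.05 by edgeR. For intron sums the medians of dusk over dawn were -0.22 over the 9 genes and -0.06 over all. No exon of the 365 tested was called by edgeR's quasi-likelihood test, against 0.0125% of all exons, and 20 had an unadjusted p under 0.05, against 5.95% of all exons. No junction of the 181 tested was called, against 0.0179% of all junctions, and 9 had an unadjusted p under 0.05, against 5.0% of all junctions. Exon usage was called for none of the 9 genes by edgeR, against 0.0256% of all genes between day and night and 0.00852% between dusk and dawn, and their lowest unadjusted p was 0.102. Of all genes, 3.12% and 1.94% had an unadjusted p under 0.05 in those comparisons.

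**Figure D5:**
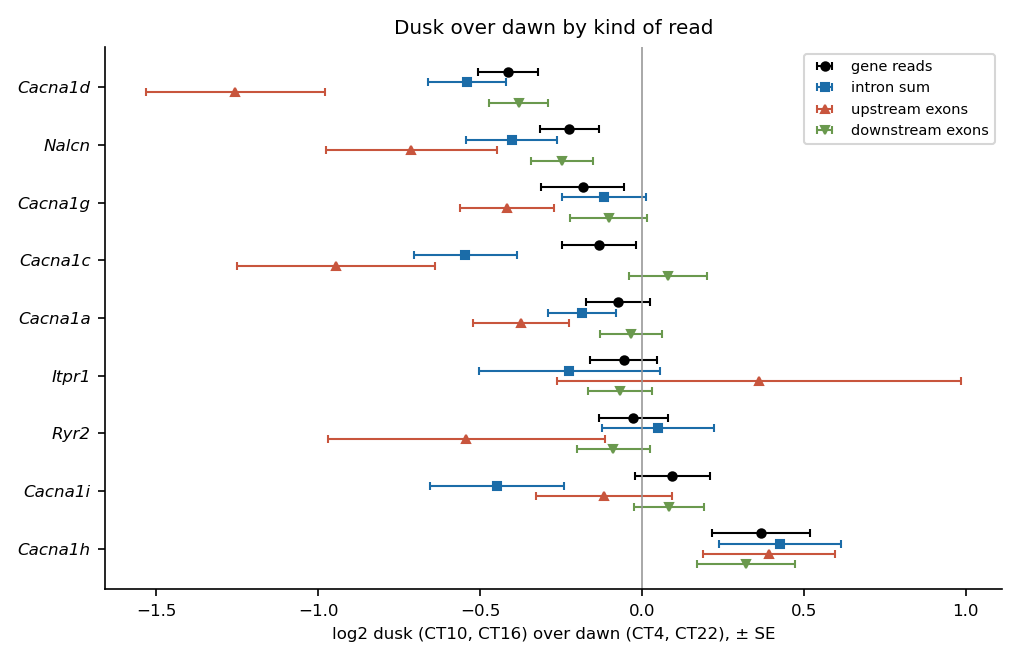
Log2 difference of dusk over dawn for each gene with its SE, from gene reads, intron sums, upstream exons and downstream exons. Cacna1d lies below 0 in all 4 measures, at -0.41, -0.54, -1.26 and -0.38. Cacna1a, Cacna1g and Nalcn also lie below 0 in all 4, and Cacna1h lies above 0.

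The other genes of calcium entry, release, export and sensing were taken as lists of 73 symbols, of which 67 were tested. None was called by edgeR in the 24-h, day against night or dusk against dawn test, and DESeq2 also called 0. Of all genes edgeR called 0.112%, 0.105% and 0.0197% in these tests, and DESeq2 0.644%, 0.368% and 0.223%. By edgeR 6 of the 67 (8.96%) had an unadjusted p under 0.05 in the 24-h test, near the 8.6% of all genes. Those named here are among the 2 with the lowest p of their list, and none passed the adjusted threshold. Cacna1e, the R-type pore, had a swing of 0.44 ± 0.12 (log2, adjusted p of 0.408). Cacna2d3, an auxiliary subunit that helps channels reach the membrane, had 0.63 ± 0.18 (adjusted p of 0.436). Calr, which binds calcium in the endoplasmic reticulum, had 0.46 ± 0.12 (adjusted p of 0.385), and Atp2b3, a pump that exports calcium, 0.58 ± 0.16 (adjusted p of 0.436). Unc80, a partner of NALCN, had 0.27 ± 0.13 (adjusted p of 0.699).

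The genes whose log2 CPM ran most like each member over the 8 libraries were sought among 11899 genes. For Cacna1d Dnmt3a was the closest (Pearson r of 0.981), and for Nalcn Kidins220 (0.981) and Gnaq (0.978) were. For Cacna1c they were Lrrc55 (0.982) and Ndufb2 (0.976), and for Cacna1a Prrt3 and Magi1 (both 0.966). With 8 libraries and so many candidates these values are a description. Among the 9 genes, the closest pair was Cacna1a and Cacna1g (r of 0.853) and the most opposed Cacna1i and Itpr1 (r of -0.832).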

How the data were processed

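The libraries were stranded polyA RNA-seq. The submitters' processing notes name STAR 2.3.0e as a tool and mm9 as the genome build. The deposited values used are whole-number read counts per gene, exon, intron and junction, and the authors' JTK p-values, q-values and lags. How reads were assigned to features is not given in the sources used here. Library totals of genes, exons and introns are so nearly equal (exons 25232810 to 25232813) that the counts look equalised before deposit. The step is not given in the sources used here, and the counts were tested as deposited.

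Counts were fitted in R 4.3.3 with edgeR 4.0.16 (quasi-likelihood F test, TMM scaling), with a day-night and a dusk-dawn term over all 8 libraries. A feature entered a fit where 2 libraries or more had 10 reads or more, and p-values were adjusted over each whole table by the Benjamini-Hochberg method at 0.05. The common biological coefficient of variation of genes was 0.143. Intron, exon and junction counts used the gene libraries' effective sizes. Sums used a set of features that do not overlap each other within a gene. Introns entered this set shortest first. Annotated exons entered before flagged ones, and longer before shorter. DESeq2 1.42.0, other scalings, other filters, an oligodendrocyte term and each library left out were alternatives. The fits of genes, intron sums, introns, junctions, exon usage and exon parts were checked on simulated data. Single introns and upstream and downstream exons were added after the data were seen.

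The members and lists were chosen with earlier results of these data known. Other genes named are, per list, among those with the lowest 24-h p, and, for likeness, those with the highest r at a mean of at least 5 CPM. Exon antisense counts were not used here. A further gene that the rule on likeness names is not reported here.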

Additional observations from a re-analysis of the deposited data

Results flagged for a closer look

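Antisense reads lie outside the comparisons above, and a pair of introns was listed with many of them. In Cacna1a, the intron chr8:87136361-87139488 (mm9) had 1028 antisense reads against 45 sense reads, with 113 to 177 antisense reads in each library. Overlapping introns of the same gene ran the other way. The intron chr8:87136312-87139472 had 48 antisense against 904 sense reads, with 95 to 141 sense reads in each library. The intron chr8:87135648-87141690, which contains both, had 153 against 1889. The containing intron thus had fewer antisense reads than an intron within it, so antisense transcription of Cacna1a cannot be read from these counts. In Cacna1c, the intron chr6:119007534-119146110 (mm9) had 862 antisense reads against 75 sense reads, with 89 to 140 in each library, while chr6:119007534-119057944 within it had 10 antisense against 35 sense reads. Over whole genes, antisense reads were 0.209 to 1.23% of sense reads in the 9 genes. Where these reads come from was not tested.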

How the results depend on the processing

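No paired analysis was possible because the labels give no replicate numbers and name no shared animal or batch. Cycle was fitted as a covariate, which groups libraries by day of collection. In the 24-h, day against night and dusk against dawn tests, DESeq2 called 98, 56 and 34 genes, and edgeR without a filter 362, 150 and 243. Without a filter 2 genes differed between cycles. An oligodendrocyte term gave 34 genes between day and night, a cycle term 6 between dusk and dawn, and a 12-h term 27 and 28 in the 24-h and day against night tests. Among the 9 genes, DESeq2 and the fit without a filter each called 1, Cacna1d, with an adjusted p of 0.0165 (24-h) and 0.0060 (dusk against dawn) without a filter. The oligodendrocyte term turned dusk over dawn of Ryr2 to 0.12 and the upstream against downstream difference of Cacna1h to -0.065. Dusk over dawn of Cacna1d was -0.41 under it, with an adjusted p of 0.973.

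Intron sums gave 89 calls by DESeq2, 168 without a filter and 17 without each gene's most-read intron, and DESeq2 and the fit without a filter each called 1 of the 9 genes. With at least 50 reads, 31 single introns were called, 0 of them in the 9 genes, and 7 junctions. The Cacna1d intron called in the main fit had 39 reads or fewer in each library, so this filter removed it before testing. Unscaled junctions gave 9 calls. With at least 50 reads exon usage was called for 6 genes between day and night. Upstream exons split by length gave 2 calls, and the upstream against downstream test with an oligodendrocyte term 1. The ratio of the highest to the lowest level was 13.7 by longest transcript and 14.9 by last exon. The cause of these differences was not tested.

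With each library left out in turn, the calls ran from 7 to 43 (24-h), 4 to 28 (day against night), 3 to 60 (dusk against dawn), 0 to 2 (cycles) and 12 to 56 (intron sums). They ran from 10 to 101 for single introns (0 to 2 in the 9 genes), 14 to 205 for exons and 0 to 62 for junctions. Exon usage ran from 0 to 63 by day against night and 0 to 3 by dusk against dawn. Upstream exons ran from 0 to 3, downstream exons from 1 to 41 and their comparison from 0 to 18. In the gene tests none of the 9 genes was called with a library left out, and the adjusted p of Cacna1d ran from 0.152 to 0.63 (24-h) and 0.0743 to 0.736 (dusk against dawn). Day over night changed sign for Cacna1d (-0.096 to 0.013), Cacna1g (-0.18 to 0.077), Cacna1h (-0.23 to 0.058), Ryr2 (-0.074 to 0.12) and Nalcn (-0.12 to 0.030). Dusk over dawn changed sign for Cacna1i (-0.0053 to 0.18), Ryr2 (-0.13 to 0.030) and Itpr1 (-0.14 to 0.0066). The upstream against downstream difference of Cacna1h ran from -0.073 to 0.20. Of the 551 junctions and 398 introns of the 9 genes, 181 and 102 had enough reads to be tested.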
